A study of Drosophila melanogaster with 30 samples.

Results

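The genes described here encode the constitutive subunits of the fly 26S proteasome. They are the genes whose annotated symbol starts with Prosalpha, Prosbeta, Rpn or Rpt followed by a digit, without the paralogs Rpt3R and Prosbeta2R2. This rule took 37 of the 10844 genes that had a probe set of their own on the array. Of these, 26 encode constitutive subunits and 11 are paralogs with a T or R in the symbol, and the brightest probe set stands for a gene that had several. The 26 subunits comprise 6 of the alpha ring (Prosalpha2 to Prosalpha7), 6 of the beta ring (Prosbeta2 to Prosbeta7), 7 of the base (Rpt2, Rpt3, Rpt4, Rpt5, Rpn1, Rpn2 and Rpn13) and 7 of the lid (Rpn3, Rpn5, Rpn6, Rpn7, Rpn8, Rpn11 and Rpn12). Prosbeta1, Rpn9, Rpn10, Rpt1 and Rpt6 were not analysed here, and the probe set of Prosalpha1 is shared with its paralog Prosalpha1R.

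The proteasome degrades proteins that carry chains of ubiquitin, in the cytosol and in the nucleus, and every growing cell needs it. Its core particle is a barrel of stacked rings: the outer alpha rings gate the entrance, and the inner beta rings hold the proteolytic sites. A regulatory particle caps the barrel. The ATPases and scaffolds of its base bind, unfold and feed in the substrate, and its lid removes the ubiquitin.

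The series asked how gene expression depends on the subunits of Myb-MuvB (dREAM), a chromatin complex that joins Myb, E2F2, the RBF proteins, Lin-52 and the Mip proteins and represses or activates its target genes. Total RNA of Kc cells, a Drosophila line of embryonic origin with blood cell traits that the labels call tetraploid and female, was hybridised to 30 Affymetrix arrays. All groups, the control included, had received RNA for 4 days, and each group had 3 arrays: a nonspecific plasmid-derived RNA (SK+) as control, and knockdowns of the MuvB subunits Mip40, Mip120, Mip130 and Lin-52, of Myb, of E2F2, of RBF1 together with RBF2 (here RBFs), of L(3)MBT and of E2F1. The E2F1 knockdown is named in the sample titles and not in the design text, and E2F1 is an activating relative of E2F2. The labels do not state whether replicates are separate cultures, so the p-values refer to the spread among these arrays alone, which may be technical.

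The knockdowns left part of each target transcript that was tested. In its own knockdown the transcript of mip40 was at 25% of control, mip120 at 52.8%, mip130 at 71.3%, lin-52 at 30.6%, E2f2 at 19.3%, Rbf2 at 73.7%, l(3)mbt at 78.1% and E2f1 at 42.9%, each called lower. E2F1 knockdown also lowered transcripts of other targets: Rbf2 was at 57.8% of control, mip120 at 58.7%, lin-52 at 58.8%, mip40 at 78.3% and mip130 at 80.5%. Outside L(3)MBT knockdown, where Rbf2 was at 84.4% as deposited, the other cross effect called lower was mip40 at 79.7% after Lin-52 knockdown. Rbf was too dim to be tested and Myb was not analysed here, so the depth of the RBF1 and Myb knockdowns is not known from these values. Of 10 hemocyte markers, Hml (mean log2 signal 10.90), Ppn (9.95) and Pxn (8.90) were bright, whereas NimC1 (3.43), crq (5.06) and eater (5.62) lay within the range of the 23 control probe sets without a fly target (3.16 to 6.22). Of 7 measured markers of other cell types, the neuron markers elav (4.16) and nSyb (5.72) and the muscle marker Tm2 (4.59) lay within that range too. The fat body markers Fbp1 (7.64) and Lsp2 (7.38) lay above it and above the array median on all 30 arrays. The germline markers bam (6.25) and vas (6.12) lay near its upper end on average, and vas ranged from a mean of 4.75 in control to 7.75 after knockdown of the RBFs.

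All 26 subunit transcripts were abundant: each lay above the median of its array on all 30 arrays, and their mean log2 signals ran from 7.73 for Rpn8 to 10.93 for Prosalpha2. These levels come from different probe sets, which no test compared, so their order is not read as an order of transcript amounts. The standard deviation within a group of 3 arrays had a median of 0.0655 over subunits and groups. The subunits also moved together from array to array within a group. Control replicate 3 was the lowest of the 3 control arrays for 24 of the 26 subunits, with a median over the subunits of -0.09 relative to the control mean, against 0.04 and 0.05 for the others. Myb replicate 3 was the lowest of its group for 24 subunits, and Mip40 replicate 3 and E2F1 replicate 2 were each the highest for 23. In bulk RNA, fewer cells of one kind and less RNA per cell cannot be told apart.

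Every change below is the mean log2 signal of the knockdown minus that of the control. A change was called at an adjusted p below 0.05 in a limma fit over all 7794 tested probe sets and all 30 arrays. The 9 knockdowns share the same 3 control arrays, so their changes are not independent of each other.

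Most proteasome transcripts fell after Mip120 knockdown. Of the 26 subunits, 22 fell and 0 rose, with a median change of -0.26 and a range from -0.52 to 0.16. All 6 subunits of the alpha ring and all 6 of the beta ring fell (medians -0.35 and -0.39), as did 5 of 7 in the base and 5 of 7 in the lid (medians -0.25 and -0.20). Over all tested probe sets, 10.5% were called lower and 8.67% higher, with a median change of 0.00021; the 2991 probe sets in the signal range of the subunits had a median of -0.02. For 24 subunits the 3 Mip120 arrays all lay below the 3 control arrays, which was so for 18% of all tested probe sets, and for 0 they all lay above (16.5%).

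**Figure D1:**
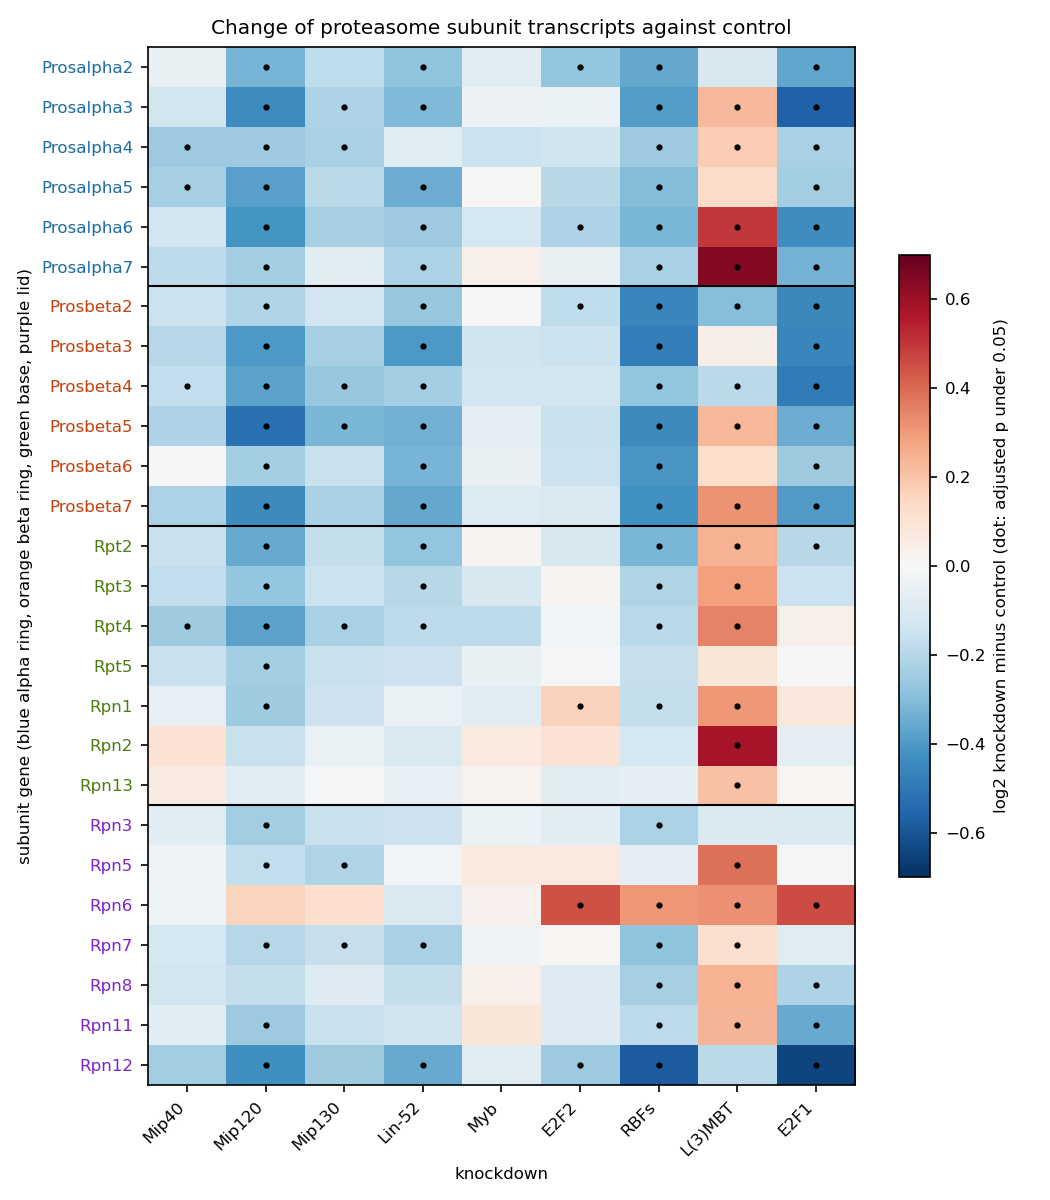
Log2 change against control (colour) of 26 proteasome subunit transcripts (rows, grouped as alpha ring, beta ring, base and lid) in 9 knockdowns (columns, 3 arrays each); dots mark an adjusted p under 0.05. Dots fill 22 rows for Mip120, 21 blue and 1 red for RBFs and 0 for Myb, and the E2F1 column is marked in all 12 ring subunits and in 1 of 7 base subunits; the red L(3)MBT column (17 higher, 2 lower as deposited) changes to 4 higher and 9 lower with quantile normalization.

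Prosbeta5, which carries the chymotrypsin-like site, showed the largest fall. Its control arrays read 10.76, 10.70 and 10.61, and its Mip120 arrays 10.16, 10.08 and 10.26. The groups did not overlap, and the change of -0.52 (SE 0.0922, adjusted p = 9.41e-05) left the transcript at 69.5% of control. Prosbeta2, which carries the trypsin-like site, changed least in its ring: 10.77, 10.75 and 10.63 in control and 10.49, 10.46 and 10.56 after Mip120 knockdown. All 3 Mip120 values lay below the controls, and the change was -0.21 (SE 0.0618, adjusted p = 0.0149). This call was lost without control replicate 1 or 2 or without Mip120 replicate 1 or 2 (adjusted p from 0.0512 to 0.0807). Prosbeta7, a structural subunit of the same ring, read 10.14, 10.24 and 9.99 in control and 9.67, 9.69 and 9.66 after the knockdown. Its change was -0.45 (SE 0.0921, adjusted p = 0.00066), again without overlap.

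In the alpha ring Prosalpha3, whose yeast counterpart has the tail that closes the gate, and Prosalpha6, a structural subunit, fell most. Prosalpha3 read 9.47, 9.34 and 9.21 in control and 8.88, 8.84 and 8.98 after Mip120 knockdown, a change of -0.44 (SE 0.0681, adjusted p = 1.54e-05). For Prosalpha6 the controls were 9.54, 9.51 and 9.32 and the Mip120 arrays 9.06, 8.96 and 9.11, a change of -0.42 (SE 0.0783, adjusted p = 0.000226). Both transcripts were lower on every Mip120 array than on any control array, at 73.8% and 74.9% of control. Prosalpha7, another structural subunit, changed least in the ring (-0.24, SE 0.0694, adjusted p = 0.0141), from 9.46, 9.50 and 9.24 to 9.15, 9.14 and 9.20, and its call was lost without control replicate 1, control replicate 2 or Mip120 replicate 2.

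The base was led by 2 ATPases. Rpt4 read 9.68, 9.82 and 9.61 in control and 9.29, 9.29 and 9.41 after the knockdown, a change of -0.37 (SE 0.0651, adjusted p = 8.43e-05). Rpt2, whose yeast counterpart helps to open the gate, read 9.11, 9.14 and 8.97 and then 8.71, 8.69 and 8.77, a change of -0.35 (SE 0.0622, adjusted p = 9.93e-05). In both the groups were fully apart. The ubiquitin receptor Rpn13 showed the smallest difference of the base and was not called: 9.29, 9.16 and 9.22 in control overlapped 9.14, 9.18 and 9.12 after Mip120 knockdown (-0.08, SE 0.051, adjusted p = 0.34). The scaffold Rpn2 was not called either (-0.16, adjusted p = 0.0843).

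In the lid the transcripts of Rpn12, which joins last in the assembly of the yeast lid, and Rpn11, the deubiquitinase, fell most. Rpn12 went from 10.20, 10.16 and 9.89 to 9.60, 9.67 and 9.69, a change of -0.43 (SE 0.0919, adjusted p = 0.000948). Rpn11 went from 9.20, 9.19 and 9.12 to 8.82, 8.93 and 8.98, a change of -0.26 (SE 0.0615, adjusted p = 0.00296). Neither gene's groups overlapped. Rpn6, the lid scaffold that clamps core and base together, had the only change above 0 among the 26 (0.16, SE 0.0963, adjusted p = 0.292, and 0.0368 with array weights). Its controls of 8.48, 8.24 and 8.53 overlapped the Mip120 values of 8.50, 8.62 and 8.61.

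**Figure D2:**
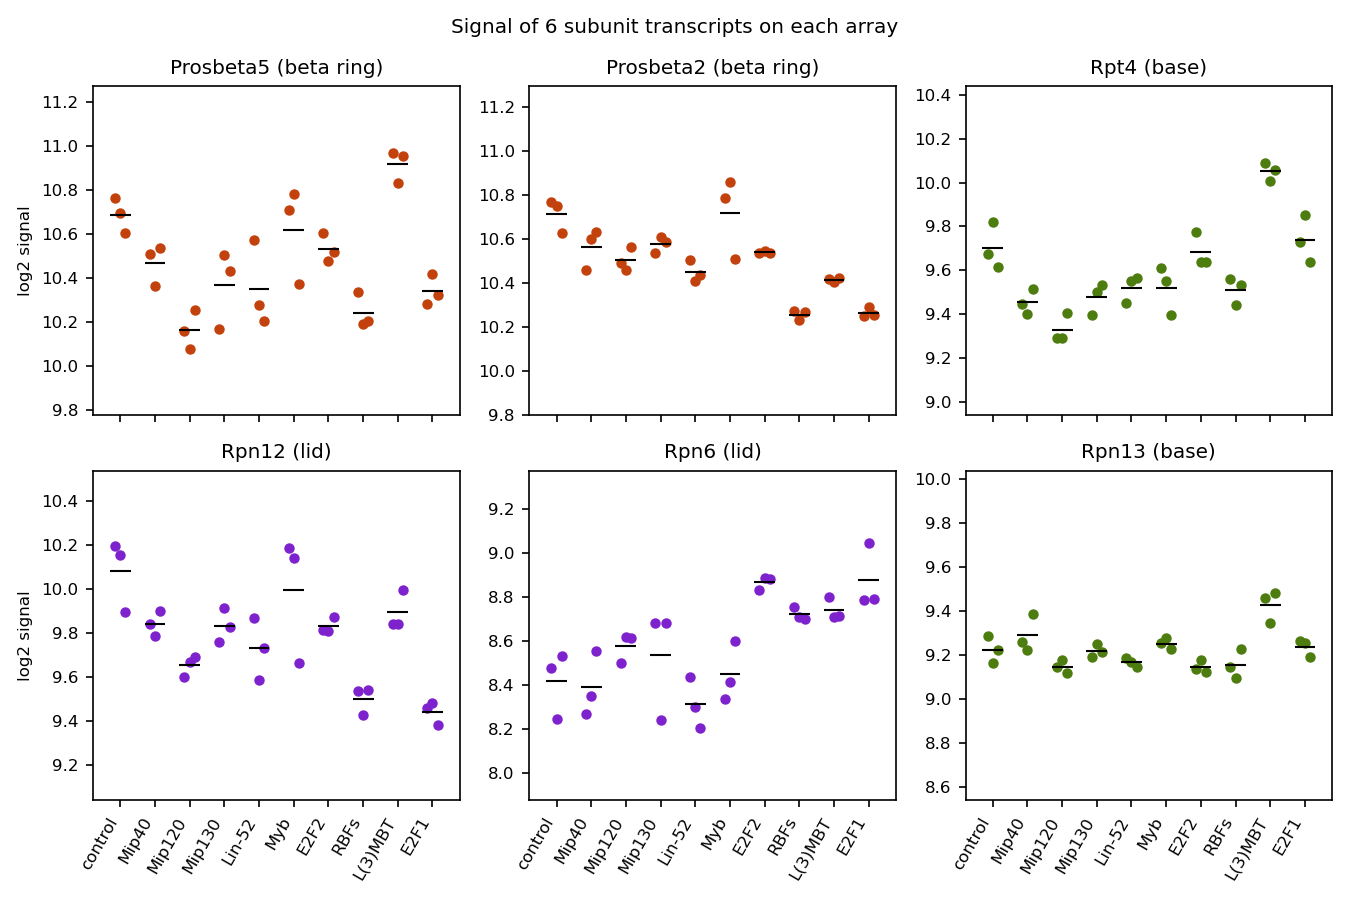
Log2 signal (y axis) of 6 subunit transcripts on each of the 30 arrays (points, replicates 1 to 3 from left to right within a group; bars, group means; every panel spans the same number of log2 units). Prosbeta5 and Rpt4 are lowest after Mip120 knockdown (means 10.16 and 9.33) and Rpn12 after E2F1 knockdown (9.44), whereas Rpn6 is highest after E2F2 and E2F1 knockdown (8.87 each).

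The mean log2 level over the 10 hemocyte markers ran from 7.73 to 7.99 on the control arrays and from 7.50 to 7.61 on the Mip120 arrays, and 5 of the 8 tested markers fell. Of the 4 tested markers of other cell types, vas rose by 2.46 (adjusted p = 8.08e-16), bam fell by 0.54 on the log2 scale (adjusted p = 0.0241), and Fbp1 and Lsp2 were not called. The mean level over all 7, which vas moves, ran from 5.75 to 5.89 in control and from 6.09 to 6.16 after Mip120 knockdown. The part of these shifts in the subunit result was not tested.

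Fewer subunits passed the test after knockdown of the other MuvB subunits, and those that did were lower. After Mip40 knockdown 4 of the 26 fell and 0 rose (median -0.14), where 8.92% of all tested probe sets were called lower and 6.99% higher. The Mip40 count was thus not far above the background. After Mip130 knockdown 7 fell and 0 rose (median -0.16), against 5.98% and 5.02% of all probe sets. After Lin-52 knockdown 16 fell and 0 rose (median -0.22), against 10.7% and 8.74%. These 16 were 5 of 6 in the alpha ring, 6 of 6 in the beta ring, 3 of 7 in the base and 2 of 7 in the lid. The knockdown arrays all lay below the control arrays for 6 subunits after Mip40 knockdown (16.3% of all probe sets), for 16 after Mip130 knockdown (15.6%) and for 16 after Lin-52 knockdown (15%). They lay above them for 0 subunits in each (14.1%, 12.3% and 12% of all probe sets).

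Prosalpha4, a structural subunit, was the largest call after Mip40 knockdown: 9.42, 9.46 and 9.61 against 9.91, 9.72 and 9.63 in control, a change of -0.25 (SE 0.057, adjusted p = 0.00183). The Mip130 arrays read 9.55, 9.54 and 9.48 for the same gene, a change of -0.23 (adjusted p = 0.00664), and neither group overlapped the control. Without control replicate 1 the Mip130 call was lost (adjusted p = 0.127). Rpt4 fell after both as well, with 9.45, 9.40 and 9.51 after Mip40 knockdown (-0.25, adjusted p = 0.00694, and 0.0795 without control replicate 2). Prosalpha5, another structural subunit of the alpha ring, read 9.46, 9.54 and 9.61 after Mip40 knockdown against 9.86, 9.88 and 9.57 in control. These groups overlapped, although the change of -0.23 was called (adjusted p = 0.0378). It was not called without control replicate 1 or 2 or Mip40 replicate 1 or 2 (adjusted p from 0.0927 to 0.209).

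After Mip130 knockdown Prosbeta5 fell most, with 10.17, 10.51 and 10.43 (-0.32, SE 0.0922, adjusted p = 0.0201). The structural beta subunit Prosbeta4 read 10.80, 10.86 and 10.86 against 11.13, 11.14 and 11.04 in control (-0.27, SE 0.0568, adjusted p = 0.00132). Both lay below every control array. The Prosbeta5 call was lost without control replicate 1 or 2 or Mip130 replicate 1 (adjusted p from 0.0652 to 0.2). Prosbeta2 did not pass the test after Mip40 knockdown (10.46, 10.60 and 10.63, -0.15, adjusted p = 0.0987) or Mip130 knockdown (10.54, 10.61 and 10.59, -0.14, adjusted p = 0.177). For Prosbeta5 the Mip40 arrays read 10.51, 10.37 and 10.54 (-0.22, adjusted p = 0.113), also below the controls without a call.

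After Lin-52 knockdown the largest falls were those of Prosbeta3, Prosbeta7 and Rpn12. Prosbeta3, a structural beta subunit, read 9.95, 9.45 and 9.55 against 10.07, 10.18 and 9.90 in control (-0.40, SE 0.103, adjusted p = 0.00517), with replicate 1 inside the control range. Prosbeta7 read 9.91, 9.71 and 9.66 (-0.36, adjusted p = 0.00497), and Rpn12 read 9.87, 9.59 and 9.73 (-0.35, adjusted p = 0.0057). Both of these lay below the control arrays. Without Lin-52 replicate 2 the Prosbeta3 and Rpn12 calls were lost (adjusted p = 0.0631 and 0.0566). The catalytic Prosbeta2, with 10.50, 10.41 and 10.44, fell by 0.26 on the log2 scale (adjusted p = 0.00232), and Prosbeta5, with 10.57, 10.28 and 10.20, fell by 0.34 (adjusted p = 0.0088). Prosbeta5 lost its call without control replicate 1 (adjusted p = 0.0529) or Lin-52 replicate 3 (adjusted p = 0.0741). Lin-52 replicate 1 was the highest of its group for 19 of the 26 subunits.

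These counts moved with single arrays and with the settings of the fit. Without control replicate 3 the Mip40 count rose to 9 and the Mip130 count to 14. Without control replicate 1 or 2 they dropped to 2 or 1 for Mip40 and to 2 for Mip130. Leaving out Mip40 replicate 1 or 2 gave 2 and replicate 3 gave 7, and leaving out Mip130 replicate 1 or 2 gave 3 or 4. The Lin-52 count was 9 without Lin-52 replicate 2. The Mip120 count stayed between 15 and 24 over all arrays left out in turn.

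The hemocyte markers were lower in these 3 groups too. Of the 8 tested, 6 fell after Mip40 knockdown (median -1.07), 5 after Mip130 knockdown (median -0.44) and 5 after Lin-52 knockdown (median -0.98), and 0 rose in each. Their mean level ran from 7.11 to 7.20 on the Mip40 arrays, from 7.39 to 7.48 on the Mip130 arrays and from 7.22 to 7.38 on the Lin-52 arrays, all below the control range of 7.73 to 7.99. Of the 4 tested markers of other cell types, the germline marker vas rose by 0.84, 2.79 and 1.55 in the same order. Among these markers 1 fell after Mip40 and 1 after Lin-52 knockdown (lowest changes -0.64 and -0.90), and 0 after Mip130 knockdown. After Myb knockdown 3 of the 8 hemocyte markers fell (median -0.26) and vas was not called. The part of these shifts in the subunit results was not tested.

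After Myb knockdown 0 of the 26 subunits were called in either direction in the limma fit, with a median change of -0.05; 3.43% of all tested probe sets were called lower and 2.36% higher. At an unadjusted p under 0.05, 3 subunits were lower and 0 higher, and the share of all probe sets at that threshold is not given here. With array weights 1 subunit was called lower, and without control replicate 3 also 1. For 1 subunit the Myb arrays all lay below the controls (7.53% of all probe sets), and for 0 above (8.11%). For Prosbeta5 the Myb arrays read 10.71, 10.78 and 10.37 (-0.07, SE 0.0922, adjusted p = 0.866), and for Prosbeta2 they read 10.79, 10.86 and 10.51 (0.0040, SE 0.0618, adjusted p = 0.991). In both genes replicates 1 and 2 lay among or above the controls and replicate 3 below them. How far the Myb transcript itself fell was not analysed here.

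**Figure D3:**
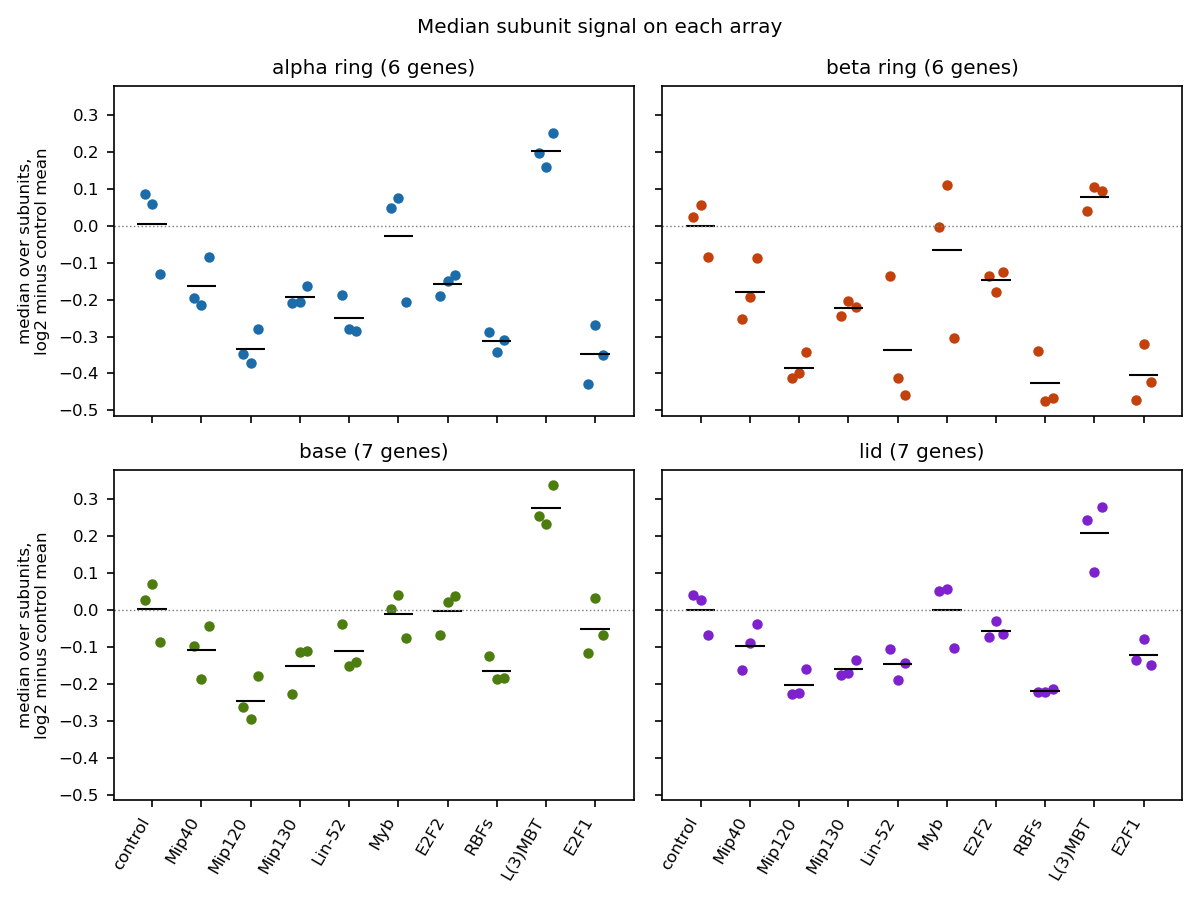
Median over the subunits of the log2 signal minus the control mean (y axis) on each array (points, replicates 1 to 3 from left to right; bars, group means), in 4 panels for the alpha ring, beta ring, base and lid. All 3 arrays lie below the control arrays in each panel for Mip120, Mip130 and RBFs, while Myb replicate 3 stands apart from the other Myb arrays; over all 26 subunits it is at -0.19 against 0.02 and 0.06.

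Knockdown of both RBFs, the fly retinoblastoma relatives that bind E2F proteins, lowered 21 of the 26 subunits and raised 1, with a median of -0.26, where 11.9% of all tested probe sets were called lower and 11.5% higher. All 12 ring subunits fell (medians -0.31 for alpha and -0.43 for beta), with 4 of 7 in the base and 5 of 7 in the lid. The arrays of the groups were fully apart downwards for 21 subunits and upwards for 1, against 17.8% and 16.8% of all probe sets. Rpn12 fell most, to 9.53, 9.43 and 9.54 (-0.58, SE 0.0919, adjusted p = 1.77e-05), or 66.8% of control. Prosbeta3 read 9.63, 9.53 and 9.53 (-0.49, SE 0.103, adjusted p = 0.000739). The arrays of both genes lay below all controls.

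The catalytic Prosbeta2 read 10.27, 10.23 and 10.27 after the knockdown of the RBFs, a change of -0.46 (SE 0.0618, adjusted p = 1.48e-06), and Prosbeta5 read 10.33, 10.19 and 10.20, a change of -0.44 (SE 0.0922, adjusted p = 0.000571). Both lay below every control. Rpn6 went the other way: its arrays read 8.75, 8.71 and 8.70, above the controls, with a change of 0.30 (SE 0.0963, adjusted p = 0.0214). The count of rises dropped to 0 without control replicate 2 or without RBFs replicate 1 or 2. Of the 8 tested hemocyte markers 5 fell and 1 rose (median -1.13), with a level of 7.15 to 7.31 on these arrays. Of the 4 tested markers of other cell types, vas rose by 3.00 and 1 fell (lowest change -0.62). The part of the markers in the result was not tested.

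After E2F1 knockdown the core subunits fell and most of the base had no call. Of the 26 subunits 16 fell and 1 rose, with a median of -0.24, where 31.3% of all tested probe sets were called lower and 22.9% higher and the median over all of them was -0.05. All 6 alpha subunits (median -0.35) and all 6 beta subunits (median -0.42) fell. In the base 1 of 7 fell (Rpt2, -0.19, adjusted p = 0.00976), with a median of -0.0031, and in the lid 3 of 7 fell and 1 rose, with a median of -0.10. The base median was -0.09 with quantile normalization and 0.04 with median centring or cyclic loess, while 6 of 6 alpha and 6 of 6 beta subunits were called lower under all 3. The E2F1 arrays all lay below the controls for 16 subunits (35% of all probe sets) and above them for 1 (24.5%).

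Rpn12 showed the largest fall of this knockdown: 9.46, 9.48 and 9.38 against the controls of 10.20, 10.16 and 9.89 (-0.64, SE 0.0919, adjusted p = 5.61e-07), or 64% of control. Prosalpha3 followed with 8.74, 8.85 and 8.74 (-0.56, SE 0.0681, adjusted p = 2.68e-08). Prosbeta4 read 10.57, 10.68 and 10.60 (-0.49, SE 0.0568, adjusted p = 1.37e-08). All 3 genes were lower on every E2F1 array than on any control array. The catalytic Prosbeta2 read 10.25, 10.29 and 10.25 (-0.45, adjusted p = 2.79e-07), and Prosbeta5 read 10.28, 10.42 and 10.32 (-0.35, adjusted p = 0.00206). Rpn6 rose to 8.79, 9.05 and 8.79 (0.46, SE 0.0963, adjusted p = 0.00017), above all controls. Of the 8 tested hemocyte markers 4 fell and 3 rose, from -2.62 for Pxn to 2.04 for eater, with a level of 7.86 to 7.98 on the E2F1 arrays, inside the control range. Of the 4 tested markers of other cell types 3 fell (bam -1.08, vas -0.53 and Lsp2 -0.26), and the level over 7 ran from 5.55 to 5.60, below the control range of 5.75 to 5.89. The part of these shifts in the result was not tested.

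E2F2, the repressive E2F of flies, gave a mixed picture that depended on the scaling. As deposited, 4 of the 26 fell and 2 rose (median -0.09), where 9.12% of all tested probe sets were called lower and 16.4% higher; with quantile normalization 15 fell and 1 rose (median -0.17), with cyclic loess 9 fell and 1 rose, and with median centring 1 fell and 2 rose. The shares of all probe sets called under the other scalings are not given here, so those counts have no background beside them. As deposited, the arrays were fully apart downwards for 6 subunits (20.4% of all probe sets) and upwards for 2 (23.5%). Rpn6 rose most, from the controls of 8.48, 8.24 and 8.53 to 8.83, 8.89 and 8.88 (0.45, SE 0.0963, adjusted p = 0.000938). Prosalpha2, a structural alpha subunit, fell from 11.15, 11.19 and 11.05 to 10.78, 10.93 and 10.87 (-0.27, SE 0.0813, adjusted p = 0.0146). For Rpn12 the E2F2 arrays read 9.81, 9.81 and 9.87 (-0.25, SE 0.0919, adjusted p = 0.0428). None of these 3 genes overlapped between the groups.

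Prosbeta2 read 10.54, 10.54 and 10.53 after E2F2 knockdown (-0.18, SE 0.0618, adjusted p = 0.0362), below every control, and Prosbeta5 read 10.61, 10.48 and 10.52 (-0.15, adjusted p = 0.224), overlapping them. Leaving out control replicate 1, E2F2 replicate 2 or E2F2 replicate 3 left 1 fall, and leaving out control replicate 2 or E2F2 replicate 1 left 0. The Prosbeta2 and Rpn12 calls were lost in all 5 of these (adjusted p from 0.0707 to 0.172), and that of Prosalpha2 without control replicate 2 or E2F2 replicate 1 (0.0591 and 0.0773). The scaffold Rpn1 was the second rise (0.16, adjusted p = 0.0425), and 1 rise was left without control replicate 3 or without any one of the E2F2 arrays. Of the 8 tested hemocyte markers 5 rose and 0 fell as deposited (median 0.32), and 4 rose with quantile normalization. Their level ran from 8.17 to 8.26 on the E2F2 arrays, above the control range of 7.73 to 7.99. Of the 4 tested markers of other cell types, vas rose by 2.97 and 2 fell (lowest change -0.67). The part of these shifts in the subunit result was not tested.

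After L(3)MBT knockdown, which targets a chromatin protein with MBT repeats, the direction of the subunits as a group depended on the scaling. As deposited, 17 of the 26 rose and 2 fell (median 0.23), where 38.9% of all tested probe sets were called higher and 34.6% lower, and the probe sets in the signal range of the subunits had a median of 0.15. Median centring, which moved the median of all probe sets from 0.02 to 0.12, gave 19 rises and 1 fall (median 0.33). Quantile normalization gave 4 rises and 9 falls (median -0.046) and cyclic loess 6 rises and 7 falls (median 0.014). The shares of all probe sets called under these other scalings are not given here, so these counts have no background beside them. The base was 6 of 7 higher as deposited, and 1 of 7 higher and 1 lower with quantile normalization. As deposited, the arrays were fully apart upwards for 16 subunits (37.6% of all probe sets) and downwards for 3 (33.6%). The count of falls was 4 without control replicate 3.

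**Figure D4:**
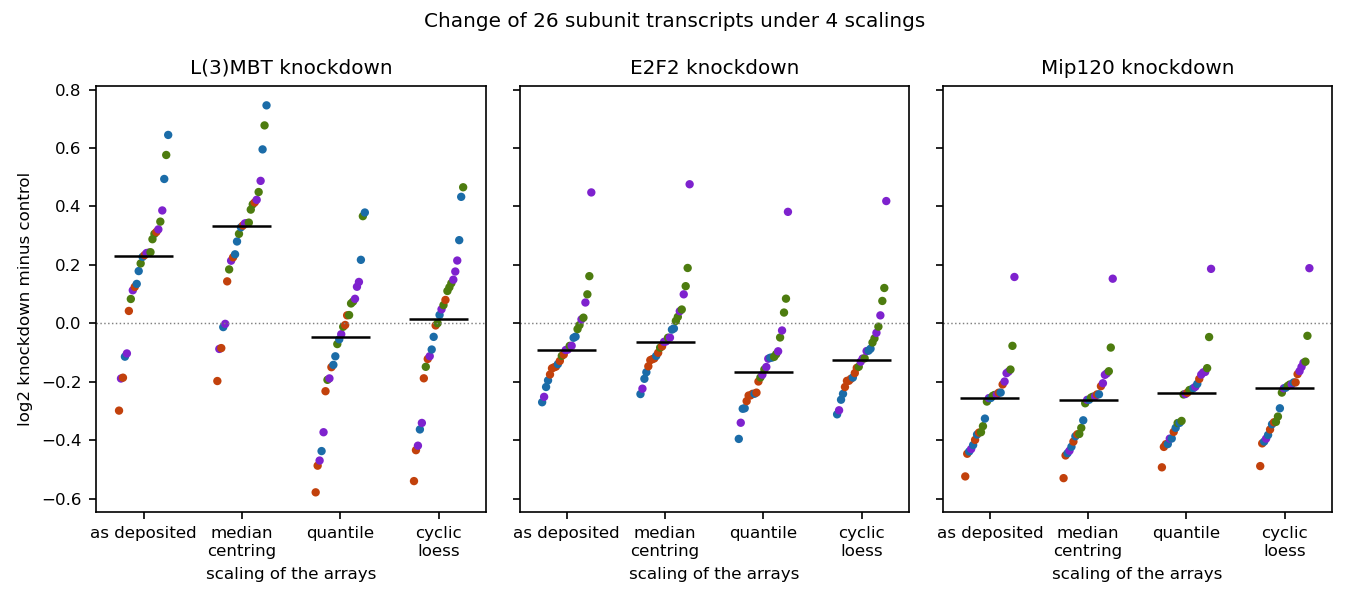
Log2 change against control (y axis) of the 26 subunit transcripts (points, blue alpha ring, orange beta ring, green base, purple lid; bars, medians) under 4 scalings of the arrays (x axis) for 3 knockdowns. The L(3)MBT median moves from 0.23 as deposited to 0.33, -0.05 and 0.01 with median centring, quantile and cyclic loess, and that of Mip120 stays between -0.26 and -0.22.

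Single subunits differed widely after L(3)MBT knockdown. Prosalpha7 read 9.93, 10.06 and 10.13 against 9.46, 9.50 and 9.24 in control, a change of 0.64 (SE 0.0694, adjusted p = 2.67e-09). The scaffold Rpn2 read 8.89, 8.69 and 8.99 against 8.27, 8.38 and 8.19 (0.58, SE 0.0642, adjusted p = 5.12e-09), and Prosalpha6 read 10.00, 9.95 and 9.91 (0.49, SE 0.0783, adjusted p = 2.28e-06). All 3 lay above their controls. Prosbeta2 instead fell, with 10.42, 10.40 and 10.42 (-0.30, SE 0.0618, adjusted p = 8.88e-05), below every control. Prosbeta5 read 10.97, 10.83 and 10.96 and rose as deposited (0.23, adjusted p = 0.0245), but its change was -0.0059 with quantile normalization (adjusted p = 0.947) and -0.0076 with cyclic loess (adjusted p = 0.933). Its call was also lost without control replicate 3 or L(3)MBT replicate 1 or 3 (adjusted p from 0.0714 to 0.0961). Of the 8 tested hemocyte markers 5 fell and 2 rose as deposited (median -0.40) and also with quantile normalization (median -0.69) or cyclic loess (median -0.61), while median centring gave 4 and 2. Their level as deposited ran from 7.36 to 7.45 on the L(3)MBT arrays, below the control range. Of the 4 tested markers of other cell types, 1 rose and 2 fell as deposited, with changes from -0.37 to 0.61. The part of the markers in the subunit result was not tested.

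Direct contrasts between knockdowns take differences of means without the control arrays, which still enter the estimate of the spread. Mip120 had many calls below 0 against Myb, E2F2, L(3)MBT as deposited and Mip40, and fewer against the other 4. The subunits called lower on the Mip120 arrays were 10 of 26 against Mip40 (6.33% of all tested probe sets), 3 against Lin-52 (7.88%), 19 against Myb (10.1%) and 16 against E2F2 (19.1%), with 0 called higher in each (8.16%, 9.21%, 8.01% and 12.6%). Against L(3)MBT 24 were lower and 0 higher (40.7% and 35% of all probe sets), and 14 lower and 2 higher with quantile normalization. Against Mip130 limma called 0 in either direction, where 1.01% of all probe sets were lower and 1.33% higher. At an unadjusted p under 0.05, 8 subunits were lower and 0 higher. The share of all probe sets at that threshold is not given here, so the 8 have no background beside them. The count at an adjusted p below 0.05 was 13 lower with array weights, 6 with the 6 arrays alone and 2 with quantile normalization or cyclic loess.

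Prosalpha3 (-0.31, adjusted p = 0.0018), Prosbeta5 (-0.31) and Prosalpha6 (-0.29) differed most between Mip120 and Mip40. Between Mip120 and Lin-52 it was Rpn1 (-0.20), Rpt4 (-0.19) and Prosalpha4 (-0.17). Prosbeta5 (-0.46), Prosalpha3 (-0.40) and Prosalpha5 (-0.39) led the contrast with Myb, and Rpn1 (-0.41), Prosalpha3 (-0.39) and Prosbeta5 (-0.37) that with E2F2. Against L(3)MBT Prosalpha6 (-0.91), Prosalpha7 (-0.88) and Prosbeta7 (-0.76) led.

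In the contrast with Mip40 the Prosbeta5 call was lost without replicate 1 or 2 of Mip120 or replicate 1 or 3 of Mip40 (adjusted p from 0.0609 to 0.107), and the Prosalpha6 call without Mip120 replicate 2 or Mip40 replicate 3. The Mip40 count was 5 without Mip120 replicate 1 and 2 without Mip120 replicate 2 or Mip40 replicate 3. The Lin-52 count was 1 without Mip120 replicate 1 or Lin-52 replicate 2 or 3 and 0 without Mip120 replicate 2; it was 2 or fewer whichever array was left out. The Myb count was 12 and 11 without Mip120 replicates 1 and 2, and 10 and 8 without Myb replicates 1 and 2.

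Mip120 and RBFs differed in 2 of 26 subunits. Prosbeta2 was higher after Mip120 knockdown (0.25, SE 0.0618, adjusted p = 0.0036), where 9.4% of all probe sets were higher, and Rpt4 was lower (-0.18, SE 0.0651, adjusted p = 0.0445), where 11% were lower. The Rpt4 call was lost without replicate 1 or 2 of Mip120 or replicate 1 or 3 of the RBFs, and with the replicate number as a block (adjusted p = 0.0557). A p that missed the threshold does not show that the other 24 were alike.

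Each subunit was also compared between Mip120 and E2F1 knockdown. In all, 6 of 26 subunits were called lower on the Mip120 arrays, a share near that of all tested probe sets (22.7%), and no test of core against regulatory particle was made. On the Mip120 arrays 4 of 7 base subunits (Rpt2, Rpt4, Rpt5 and Rpn1) and 2 of 7 lid subunits (Rpn5 and Rpn6) were lower than on the E2F1 arrays, and 0 of the 12 ring subunits. Rpt4 differed by -0.41 (SE 0.0651), with means of 9.33 and 9.74, Rpn1 by -0.33 (SE 0.0587) and Rpn6 by -0.30 (SE 0.0963, adjusted p = 0.0103). Prosbeta2 alone was higher (0.24, SE 0.0618), where 30.2% of all probe sets were. With quantile normalization 3 subunits were lower and 6 higher, and without E2F1 replicate 2 the count of lower subunits was 2 and the Rpn6 call was lost (adjusted p = 0.0947).

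E2F2 and E2F1, the repressive and the activating E2F, were also compared directly. Of 26 subunits, 11 were higher after E2F2 than after E2F1 knockdown (31.2% of all tested probe sets) and 0 lower (21.8%). The share called higher was only moderately above that of all tested probe sets. The 11 were 3 alpha and 4 beta subunits, 2 in the base and 2 in the lid, and in the base and lid the share was near the background. Prosalpha3 differed by 0.52 (SE 0.0681), Rpn12 by 0.39 (SE 0.0919) and Prosbeta4 by 0.36 (SE 0.0568). The count was 7 without E2F2 replicate 3 or E2F1 replicate 1.

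**Figure D5:**
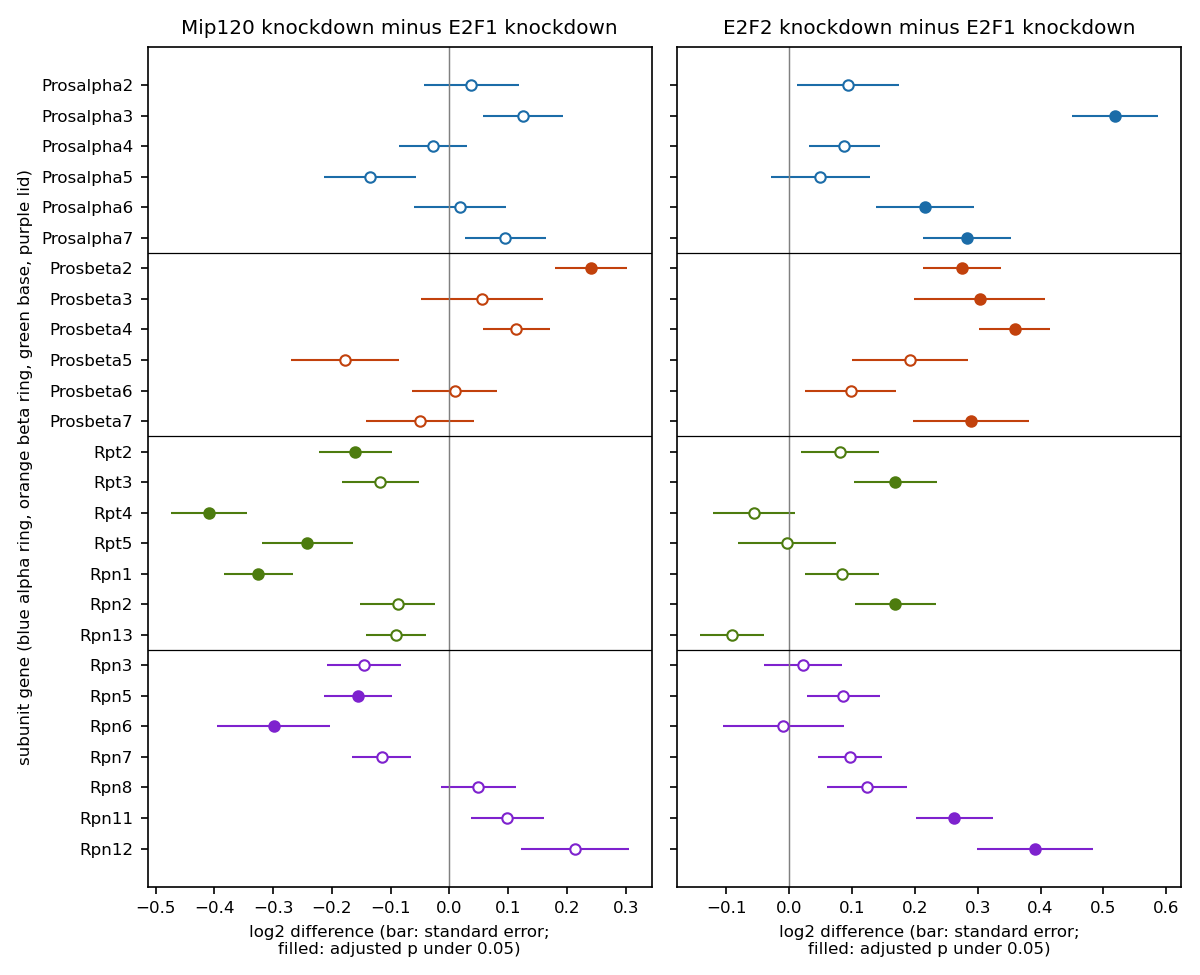
Log2 difference (x axis, bars are standard errors; filled points have an adjusted p under 0.05) of the 26 subunit transcripts between Mip120 and E2F1 knockdown (left) and between E2F2 and E2F1 knockdown (right), 3 arrays per knockdown. On the left the filled points below 0 are 4 base and 2 lid subunits; on the right 11 points are filled, all above 0 and led by Prosalpha3 at 0.52.

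Over the 9 knockdowns Prosbeta4 was called lower in 7, Prosbeta2 in 6 and Rpn6 in 0, while Rpn6 was called higher in 4 and Rpn2 and Rpn13 were called lower in 0. The L(3)MBT calls are counted here as deposited. The 9 contrasts share their control arrays, and the share of all probe sets called as often was not computed. The genes of the 26 subunits are spread over the genome, with 4 on chromosome arm 2L, 7 on 2R, 4 on 3L, 8 on 3R and 3 on X. The closest pair, Prosbeta6 and Rpn12, had 9 protein-coding genes between them in the RefSeq Release 6 annotation.

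The 11 paralogs, most of them known from the testis, were dim: 10 did not pass the filter on low signals. Prosalpha4T2 was tested (mean log2 signal 6.66) and had no call against control in any knockdown, with a change of 0.12 (adjusted p = 0.283) after Mip120 knockdown. The paralogs that the rule leaves out, Rpt3R and Prosbeta2R2, rose after Mip120 knockdown, by 0.82 (SE 0.0964) and 0.68 (SE 0.0797), opposite to Prosbeta2 and most base subunits.

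Among 13 measured partners of the proteasome, Mip120 knockdown lowered 4 and raised 1, where 10.5% of all tested probe sets were lower and 8.67% higher. The small lid subunit Sem1 changed by -0.47 (adjusted p = 0.000855), the deubiquitinases Uch-L5 and Usp14 by -0.36 and -0.25, and the ubiquitin shuttle Rad23 by -0.36. The shuttle rngo rose by 0.19 (adjusted p = 0.0316). After E2F1 knockdown 4 of the 13 fell and 2 rose, where 31.3% of all tested probe sets were lower and 22.9% higher. Uch-L5 fell most in that knockdown (-0.69, SE 0.111, adjusted p = 4.3e-06). With the deposited scaling 12 of the 13 partners rose after L(3)MBT knockdown, among them Sem1 (1.05) and the core assembly chaperone Pomp (0.71), where 38.9% of all tested probe sets were called higher, and 10 rose with quantile normalization or cyclic loess. The Nrf-type transcription factor cnc, whose relatives raise proteasome genes in mammals, rose after E2F2 (0.51) and RBFs knockdown (0.47) and was not called after Mip120 knockdown (0.28, adjusted p = 0.0843).

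Other large complexes of growing cells were read beside the proteasome. Of 8 tested COP9 signalosome genes, which are related to the lid, 0 were called after Mip120 knockdown in limma (median -0.13). At an unadjusted p under 0.05, 2 were lower and 0 higher, and the share of all probe sets at that threshold is not given here. All 8 changes were below 0. For 4 genes the Mip120 arrays all lay below the controls and for 0 above (18% and 16.5% of all tested probe sets). After Lin-52 knockdown 3 of the 8 fell and 0 rose, where 10.7% of all tested probe sets were lower. After RBFs knockdown 2 fell and 0 rose (11.9% lower). After E2F1 knockdown 5 fell (median -0.27, and 4 fell under each of the 3 other scalings), where 31.3% of all tested probe sets were lower. Of 8 genes of the chaperonin CCT, 2 fell after Mip120, 1 after RBFs and 3 after E2F1 knockdown as deposited (1 with median centring or cyclic loess and 4 with quantile normalization). The shares of all tested probe sets called lower were 10.5%, 11.9% and 31.3%, so the CCT counts after RBFs and E2F1 knockdown were near the background. For 4 of the 8 CCT genes the Mip120 arrays all lay below the controls and for 0 above, again against 18% and 16.5%. Of 4 measured ubiquitin genes, 0 were called after Mip120 knockdown, also at an unadjusted p under 0.05.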

How the data were processed

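The authors deposited 1 signal for each probe set on each array. The signals span 1.949 to 13.597 and, as deposited, were taken as log2 values because of that span; the log base, normalization and summarization are not given in the sources used here. The submitters' processing notes name GCOS 1.2.0, and per the labels biotin-labelled cRNA came from 10 microg of total RNA. Values were used as deposited, with 44 control probe sets left out.

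Probe sets above their array's median on at least 3 arrays were tested (7794 of 13966). Group means of all 30 arrays were fitted in limma 3.58.1 (R 4.3.3), with 20 residual degrees of freedom and an intensity trend in eBayes. In each of 9 contrasts with control and 9 direct contrasts, the two-sided p-values got a Benjamini-Hochberg adjustment over all tested probe sets. No p was computed over the subunits as a set. The array number limits the precision. In the direct contrasts, Mip120 was set against each other knockdown and E2F2 against E2F1. Counts were tabulated in pandas 2.3.3 and numpy 2.4.6 (Python 3.11.15) and drawn in matplotlib 3.10.9. The fit was tested on simulated data.

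The members, gene lists and direct contrasts were chosen with earlier results of these data known. Genes named with every array's value are the catalytic subunits, the 2 largest and the smallest change of each subcomplex in the contrast with most calls (Mip120 and RBFs both had 22, and Mip120 was taken), and up to 3 of the largest calls in each other contrast. For the direct contrasts, up to 3 of the largest calls are named. Gene names come from the platform annotation (12443 probe sets with 1 gene, 327 with several, 1196 with none). Promoter motifs were not analysed here.

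Arrays with the same replicate number were set against each other by their deviations from the group means. Every number's correlation passed 0.1 for Myb against control (0.21, 0.40 and 0.58) and for Mip120 against Mip40 (0.12, 0.27 and 0.44), and not for the other 16 contrasts. The labels do not say what a number stands for. Alternatives were 3 other scalings, other filters, array weights, no intensity trend, a minimum fold of 1.1, fewer arrays, a replicate block and arrays left out in turn.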

Additional observations from a re-analysis of the deposited data

How the results depend on the processing

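The counts given are of subunits called lower or higher against control, unless 2 knockdowns are named. Of the counts recomputed under the alternatives, 534 stayed within 1.5 times, 84 dropped and 44 rose beyond that. Shares of all tested probe sets called are given for the main fit only, so counts under the alternatives have no background beside them. The cause of the differences was not tested.

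With quantile normalization E2F2 gave 15 lower and 1 higher (median -0.17), L(3)MBT 9 lower and 4 higher (median -0.046), and Mip120 against Mip130 2 lower, against Lin-52 5 lower and 1 higher, against E2F2 10 lower, against RBFs 3 lower, against L(3)MBT 14 lower and 2 higher and against E2F1 3 lower and 6 higher. With cyclic loess E2F2 gave 9 lower and 1 higher, L(3)MBT 7 lower and 6 higher (median 0.014), E2F1 2 higher, and Mip120 against Mip130 2 lower, against Lin-52 5 lower, against RBFs 2 higher, against L(3)MBT 15 lower and 3 higher and against E2F1 3 higher; E2F2 against E2F1 gave 2 lower. Prosbeta5 after L(3)MBT knockdown turned from 0.23 to -0.0059 with quantile normalization and -0.0076 with cyclic loess. Median centring left Mip40 2 lower, E2F2 1 lower, L(3)MBT 1 lower (median 0.33) and Mip120 against RBFs 0 lower.

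With array weights the lower counts were 18 for Mip40, 20 for Mip130, 1 for Myb, 12 for E2F2 and 5 for L(3)MBT, and Mip120 had 1 higher. In the direct contrasts of Mip120 they gave 1 higher for Mip40, 13 lower for Mip130, 6 lower and 2 higher for Lin-52, 1 higher for Myb, 2 lower and 3 higher for RBFs and 11 lower and 5 higher for E2F1, and 17 higher for E2F2 against E2F1. A minimum fold of 1.1 left 0 lower for Mip40, Mip130, Lin-52 and E2F2, 9 for Mip120, 8 for RBFs and 1 for L(3)MBT, and 1 higher for E2F2, 0 for RBFs and 7 for L(3)MBT; in the direct contrasts of Mip120 it left 0 lower for Mip40 and Lin-52, 5 for Myb, 3 for E2F2, 0 lower and 0 higher for RBFs, 2 lower and 0 higher for E2F1, and 3 higher for E2F2 against E2F1.

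With the 6 arrays of a contrast alone the counts were 2 lower for Mip130, 4 lower for Lin-52 and 1 higher for E2F2, and for Mip120 against Mip40 1 higher, Mip130 6 lower, Lin-52 0 lower and 1 higher, Myb 10 lower, RBFs 3 higher and E2F1 3 higher. No filter left E2F2 1 higher and Mip120 against RBFs 0 lower, which was also 0 without the L(3)MBT arrays. With the replicate number as a block E2F2 gave 1 higher, Mip120 against RBFs 0 lower, Mip120 against Mip40 9 lower and Myb 0; no other count moved by over 1.5 times. The block with 6 arrays alone, an alternative added after seeing the data, gave 1 lower for Mip40, 1 for Mip130 and 10 for Lin-52, and 1 higher for E2F2.

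Leaving out each array in turn gave lower counts of 1 to 9 for Mip40, 2 to 14 for Mip130, 9 to 18 for Lin-52, 0 to 1 for Myb, 0 to 6 for E2F2 and 2 to 4 for L(3)MBT, and higher counts of 1 to 2 for E2F2 and 0 to 1 for RBFs. For Mip120 it gave 2 to 10 lower against Mip40, 0 to 2 lower and 0 to 2 higher against Lin-52, 8 to 22 lower against Myb, 0 to 1 lower against RBFs and 2 to 7 lower against E2F1, and E2F2 against E2F1 gave 7 to 11 higher. Without control replicate 3 L(3)MBT gave 4 lower. With 3 arrays per group the standard errors ran from 0.0508 to 0.103, which limits how small a change of a subunit could pass the test.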

Other observations

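The probe set shared by Prosalpha1, a structural subunit of the alpha ring, and its paralog Prosalpha1R read 11.11 ± 0.08 (SD, n = 3) in control. It was lower after Mip120 knockdown, with 10.68 ± 0.09, a difference of -0.43 on the log2 scale, and after E2F1 (-0.39), RBFs (-0.37), Lin-52 (-0.37), Mip130 (-0.28) and Mip40 knockdown (-0.22). The 3 arrays of each of these groups lay below the lowest control array, at 11.02. After Myb (-0.13) and E2F2 knockdown (-0.09) the difference was smaller, and after L(3)MBT knockdown it was -0.0060 as deposited. Signals of the 2 genes cannot be told apart in this probe set.

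Both Prosbeta6, a structural beta subunit, and Prosalpha7 had a second, dimmer probe set. For Prosbeta6 it read 6.55 on average, against 10.80 for the brightest. The probe sets gave the same call for Mip120 (-0.23 and -0.24), RBFs (-0.37 and -0.41) and E2F1 (-0.20 and -0.25). They differed for Lin-52, where the dim one changed by 0.06 (adjusted p = 0.688) and the bright one fell by 0.33 on the log2 scale, and for L(3)MBT, where the dim one fell by 0.64 and the bright one changed by 0.12 (adjusted p = 0.121) as deposited. The second probe set of Prosalpha7 (mean 5.36) did not pass the filter.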
